A study of Mus musculus with 6 samples.

Results

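The genes described here are 10 genes of hepcidin signalling and iron handling: Hamp and Hamp2, which encode hepcidins, the BMP ligand Bmp6 and the BMP target Id1, the transferrin gene Trf with its receptors Tfrc and Tfr2, the ferritin chains Fth1 and Ftl1, and the iron exporter Slc40a1. They were taken by symbol from a table of 30236 genes, all 10 were found, and all 10 lay among the 22677 genes tested, which are those whose mean over all libraries was above the lowest 25%. RNA was sequenced from liver tumors, 3 in WT mice and 3 in mice that lack Top1mt, the gene of mitochondrial topoisomerase I, to compare the tumors of the 2 genotypes. Heterozygous breeding gave the male littermates used, of strain C57BL/6, and the knockout (Top1mt-/-, here KO) affects the whole body rather than hepatocytes alone. Both groups received diethylnitrosamine, a liver carcinogen, on postnatal day 14. From 8 weeks of age both also received 2 injections per week of carbon tetrachloride, a hepatotoxin, for 14 weeks. Tumor tissue was collected at 22 weeks, and each library comes from whole tumor tissue. The labels do not say which tumors came from which litters, and the p-values below measure only the spread between these samples.

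Hepcidin is a peptide hormone made mainly by hepatocytes. It binds ferroportin, the product of Slc40a1 and the known cellular exporter of iron, and causes its degradation, so that iron stays in macrophages, enterocytes and hepatocytes. In the liver, Bmp6 from sinusoidal endothelial cells signals through SMAD proteins to hepcidin and to Id1, Tfr2 takes part in sensing iron-loaded transferrin, and interleukin-6 acts on hepcidin through STAT3. Inside cells, iron regulatory proteins bind stem-loops in mRNA, blocking translation of ferritin and ferroportin and protecting the mRNA of Tfrc from decay when iron is scarce.

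The mouse has 2 hepcidin genes, which lie side by side on the minus strand of chromosome 7, Hamp at chr7:30942368-30944029 and Hamp2 at chr7:30922372-30924181 (GRCm38.p6), 18186 bases apart. The stretch of the Hamp promoter that holds the known BMP-responsive and STAT3 elements (chr7:30944099-30944150) is shown beside the aligned stretch of Hamp2 (chr7:30924248-30924299). They are shown because a difference between the near-copies lies inside the BMP-responsive element. Capitals mark the letters GGCGCC, the core of the BMP-responsive element, and TTCNNNGAA, the STAT motif, both of which read the same on either strand and do not overlap each other here. The sequences are from RefSeq and read 5′ to 3′.
Hamp: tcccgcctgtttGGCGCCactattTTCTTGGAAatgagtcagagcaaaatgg
Hamp2: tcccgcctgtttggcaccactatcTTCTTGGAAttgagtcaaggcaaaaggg
Counted from 1 at the 5′ end of the piece, the differences from Hamp to Hamp2 were G16A, T24C, A34T, G42A, A43G and T50G, and G16A lies inside GGCGCC. The motif GGCGCC stood at -109 to -104 from the start base of Hamp, which is numbered 0, and these letters were not in the window of Hamp2. TTCNNNGAA stood at -97 to -89 in Hamp and at -94 to -86 in Hamp2. Over the 247 aligned bases before the start, 227 were identical (91.9%). Of 32851 promoter windows of the same length in the genome, 11.9% held GGCGCC, 8.30% held TTCNNNGAA and 0.645% held both. Among the 10 genes, 7 had a promoter window in the reference table, and the other one with GGCGCC was Tfrc, at -89 to -84. Trf, Slc40a1 and Id1 had no window.

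A subset of the genes carries the stem-loop that iron regulatory proteins bind, the iron-responsive element, shown because it sorts them by mode of control. All 10 transcripts of GENCODE M21 (GRCm38) were searched for a bulged C, 5 paired bases and a CAGTGN loop, marked in capitals. There were 7 matches in 4 genes, 3 in a 5′ UTR and 4 in the 3′ UTR of Tfrc. Of 21877 protein-coding genes, 1.34% held such a match in a protein-coding transcript. The element of Fth1 lies at chr19:9982732-9982760 on the plus strand, that of Ftl1 at chr7:45459779-45459807 on the minus strand and that of Slc40a1 at chr1:45925465-45925493 on the minus strand. The first of Tfrc lies at chr16:32631219-32631247 on the plus strand, and its last ends at 32631738.
Fth1: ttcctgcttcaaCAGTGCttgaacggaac
Ftl1: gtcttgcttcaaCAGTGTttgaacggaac
Slc40a1: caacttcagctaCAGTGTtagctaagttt
Tfrc: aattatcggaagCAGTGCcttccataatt
The first 3 are in 5′ UTRs, where binding is known to act on translation, and RNA sequencing does not measure translation. Of the 4 genes, the mRNA level of Tfrc is the one that these proteins are known to set through its 3′ UTR.

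Expression is given on the authors' log2 scale, which is normalized between libraries and not corrected for gene length. It keeps no read totals, so sequencing depth is unknown. The targeted gene, Top1mt, measured 7.71, 5.99 and 8.01 for the tumors labelled WT (replicates 1, 2 and 3) against 5.58, 6.41 and 6.32 for those labelled KO. WT replicate 2, as labelled, was below 2 of the 3 KO libraries, and every direction that follows rests on the labels. The library labelled KO replicate 1 stood apart in a few transcripts. Gm42418 was at 22.00 there against 11.66 to 15.80 in the others, and made up 17.7% of the summed linear values of that library. Lars2 was at 20.06 there against 8.44 to 12.67. Hepatocyte, sinusoidal endothelial and Kupffer cell markers were present in all 6 libraries, with Alb between 20.26 and 21.12. The tumor markers Afp and Gpc3 ranged from 8.06 to 13.19 and from 8.75 to 12.17. In whole tissue, fewer cells of a type and less RNA per cell cannot be told apart.

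None of the 10 genes differed between genotypes by the test. By limma with Benjamini-Hochberg adjustment over all genes tested, 0 of 10 had an adjusted p under 0.05 (0% of all genes tested) and each had an adjusted p of 0.999. An unadjusted p under 0.05 was reached by 0 of 10, beside 4.34% of all genes tested. In 0 of 10 did the groups not overlap, beside 8.28% of all genes tested. The mean was higher in KO for 7 genes and lower for 3, beside 47.7% and 52.3% of all genes tested. After each library was centred on its median, 9 were higher and 1 lower. Over all genes tested, 405 of those at an unadjusted p under 0.05 were higher and 580 lower in KO, or 535 and 443 after that centring. The median log2 difference of the 10 genes was 0.15, beside -0.015 over all genes tested. The absolute difference passed its standard error in 3 genes, Hamp2, Slc40a1 and Id1, and was under 0.2 in the other 7. Single-gene p-values below are two-sided and come from exact permutation tests, whose 20 regroupings of 3 against 3 can give no value under 0.1, and each 95% interval is from limma.

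**Figure D1:**
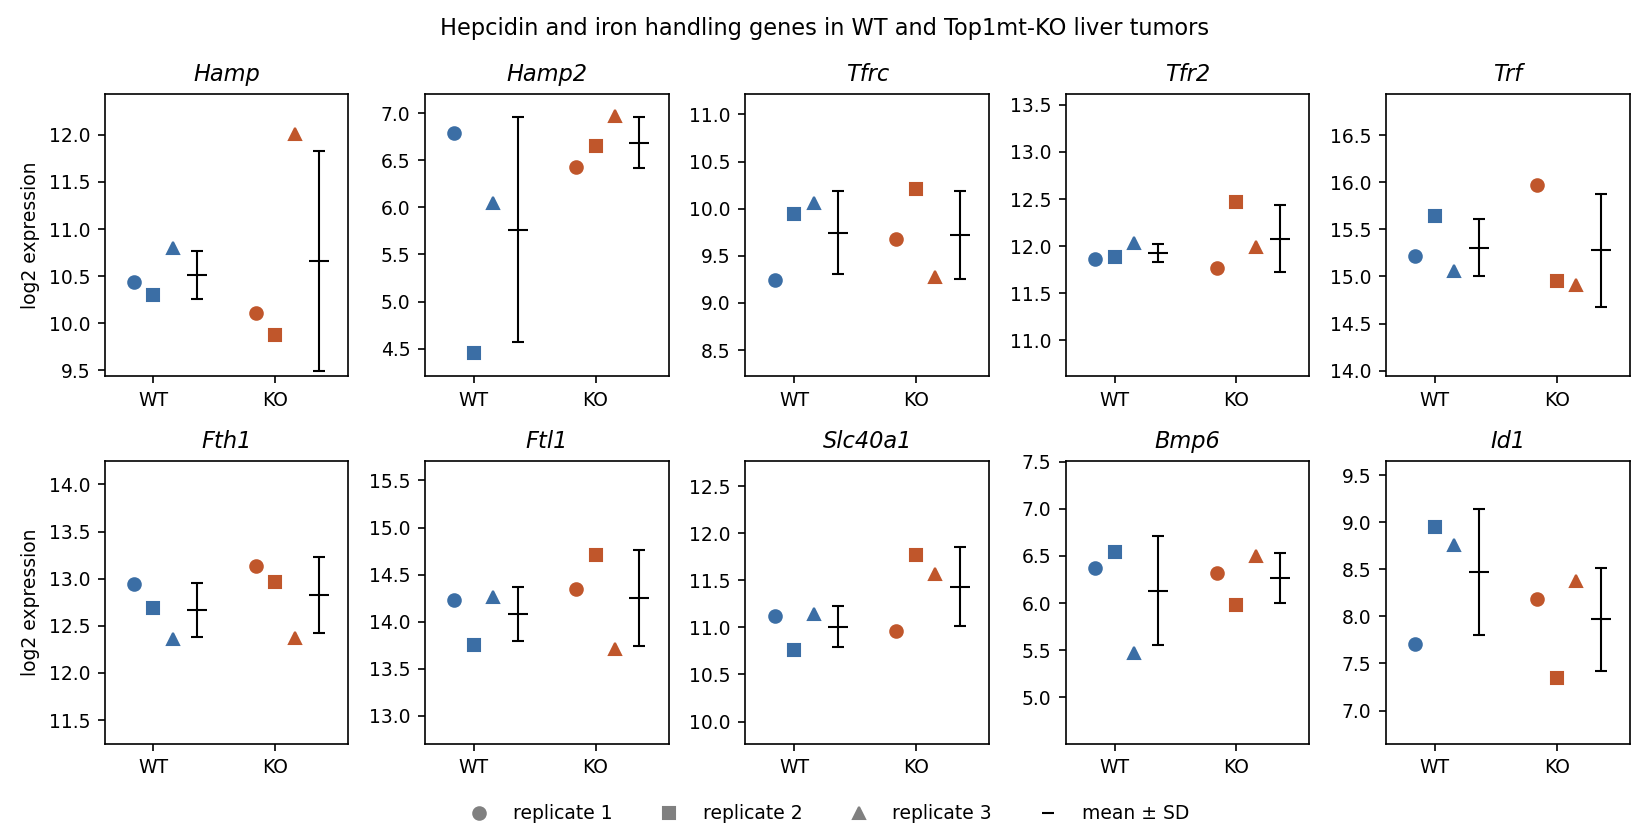
Log2 expression of each of the 10 genes in the 3 WT (blue) and 3 KO (red) tumor libraries, with one symbol per replicate number and the mean ± SD (n = 3) in black. Every panel spans 3 log2 units with its own offset, and the groups overlap in all 10, with the widest spread for Hamp in KO and Hamp2 in WT.

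Hamp had the widest spread of the 10 genes among the KO tumors and a narrow one among the WT tumors. In replicate order, Hamp had log2 values of 10.44, 10.30 and 10.79 in WT against 10.11, 9.87 and 12.00 in KO. A single KO tumor, replicate 3, was the highest of all, and the remaining KO tumors lay below every WT tumor. The WT mean was 10.51 ± 0.25 (SD, n = 3) and the KO mean 10.66 ± 1.17 (SD, n = 3). The difference, KO minus WT, was 0.15 with a 95% interval of -1.02 to 1.32 (exact permutation p = 1.0). Without KO replicate 3 the difference was -0.52 and the sign had turned, with an unadjusted limma p under 0.05 that did not hold on adjustment. The values of Hamp spanned 2.13 log2 units in KO and 0.49 in WT, and its SD within groups was larger than that of 89.9% of all genes tested.

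Hamp2, whose product is not known to act on iron as hepcidin 1 does, spread more widely in WT than in KO. Its values were 6.79, 4.45 and 6.05 in WT and 6.43, 6.65 and 6.97 in KO. WT replicate 2 was the lowest, more than 1.5 log2 units below any other tumor, and the KO tumors lay close together, with KO replicate 3 the highest of all, as for Hamp. The WT mean was 5.76 ± 1.20 (SD, n = 3) and the KO mean 6.68 ± 0.27 (SD, n = 3). The difference of 0.92, a fold of 1.89, was the largest of the 10 genes and had a 95% interval of -0.35 to 2.19 (exact permutation p = 0.3). Without WT replicate 2, the library whose Top1mt value went against its label, it was 0.26. Without WT replicate 1 it was 1.43, with an unadjusted limma p under 0.05 that did not hold on adjustment. The SD of Hamp2 within groups was larger than that of 90.8% of all genes tested.

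Both hepcidin genes were highest in KO replicate 3 but were lowest in different tumors. The gap between them within a library, Hamp minus Hamp2 on the log2 scale, was 3.65, 5.85 and 4.74 in WT against 3.68, 3.22 and 5.04 in KO. It was widest in WT replicate 2, where Hamp2 was low, and in KO replicate 3, where Hamp was high, it was the widest of its group. The mean gap was 4.75 ± 1.10 in WT and 3.98 ± 0.94 in KO (SD, n = 3 each). They differed by -0.77 (exact permutation p = 0.5). This was -0.22 without WT replicate 2 and -0.39 without KO replicate 2, against -1.32 without WT replicate 1 and -1.30 without KO replicate 3. The transcripts are near-copies, with 388 of 410 aligned bases identical (94.6%) and 87 bases as their longest shared run, shorter than the reads. No stretch of either transcript as long as a read occurred in a transcript of another annotated gene.

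**Figure D2:**
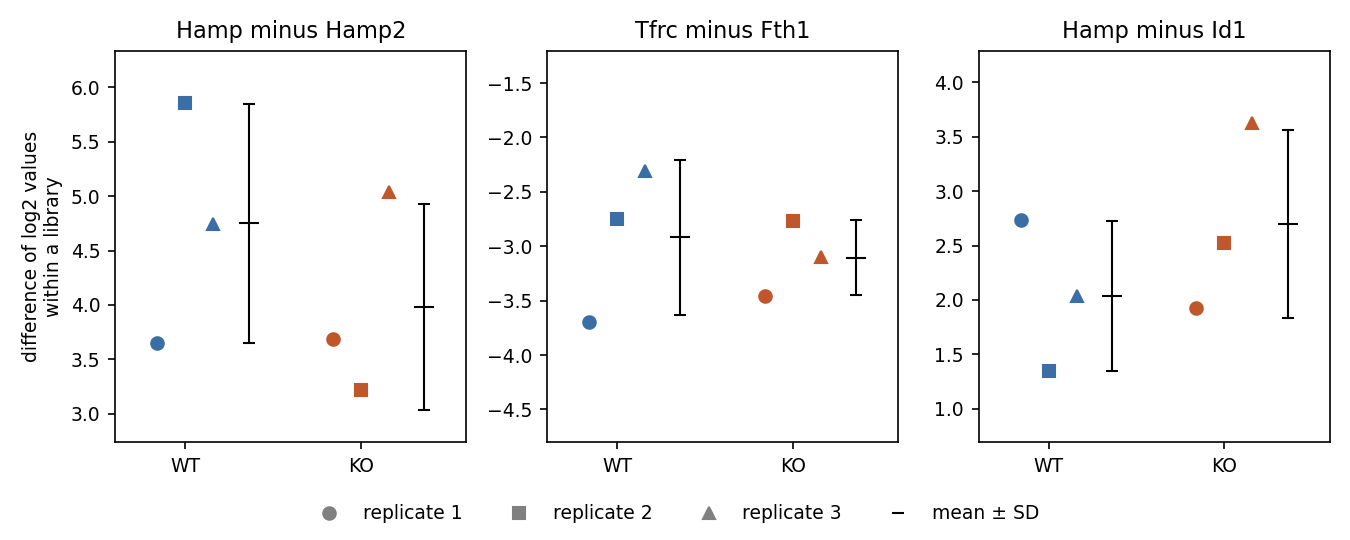
Differences of log2 values within each library for Hamp minus Hamp2, Tfrc minus Fth1 and Hamp minus Id1, in WT (blue) and KO (red), with one symbol per replicate number and the mean ± SD (n = 3) in black. The groups overlap in all 3 panels, and each panel spans the same number of log2 units.

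On the BMP arm, the ligand had a mean difference near 0 and the target a lower mean in KO, neither past the test. Bmp6, on chromosome 13 (chr13:38345716-38500314), had values of 6.37, 6.55 and 5.47 in WT and 6.32, 5.98 and 6.50 in KO. WT replicate 3 was the lowest and the other 5 tumors were within 0.6 log2 units. The difference was 0.13 with a 95% interval of -0.65 to 0.92 (exact permutation p = 0.9), and it was -0.20 without WT replicate 3. Sinusoidal endothelial cells are the known liver source of Bmp6, and WT replicate 3 was also the lowest library in 4 of their 8 marker genes. The summed level of those markers was 13.22 to 13.55 in WT and 13.22 to 13.55 in KO, and their part in the Bmp6 values was not tested.

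Id1 encodes an inhibitor of DNA binding that answers to BMP signalling, at chr2:152736251-152737410. Its values were 7.71, 8.95 and 8.76 in WT and 8.18, 7.35 and 8.38 in KO. WT replicates 2 and 3 were above every KO tumor, while WT replicate 1 was above only KO replicate 2. The WT mean was 8.47 ± 0.67 (SD, n = 3) and the KO mean 7.97 ± 0.55 (SD, n = 3). The difference was -0.50, a fold of 0.705, with a 95% interval of -1.38 to 0.37 (exact permutation p = 0.4). Without WT replicate 1 it was -0.89, with an unadjusted limma p under 0.05 that did not hold on adjustment, and without KO replicate 2 it was -0.19. Hamp minus Id1 within a library was 2.73, 1.35 and 2.04 in WT against 1.93, 2.53 and 3.63 in KO. The tumor highest in Hamp was not set apart in Id1. The mean gaps differed by 0.66 (exact permutation p = 0.5), by 0.19 without KO replicate 3 and 0.31 without WT replicate 2, and by 1.04 without KO replicate 1 and 1.001 without WT replicate 1.

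Tfr2, the receptor that senses iron-loaded transferrin in hepatocytes, was the steadiest of the 10 genes. At chr5:137569822-137588081, it had 11.86, 11.88 and 12.04 in WT and 11.77, 12.47 and 12.00 in KO. Only KO replicate 2 lay outside a range of 0.3 log2 units. The difference was 0.15 with a 95% interval of -0.31 to 0.61 (exact permutation p = 0.7), and it was -0.043 without KO replicate 2. Its SD within groups was larger than that of 32.3% of all genes tested.

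Tfrc, the receptor that takes up transferrin iron in most cells, lies at chr16:32608896-32632794. Its values were 9.24, 9.94 and 10.06 in WT and 9.68, 10.21 and 9.27 in KO. Each genotype spanned about the same range, from a tumor near 9.2 or 9.3 to one above 10. The difference of -0.027 was the smallest in size among the 10 genes, with a 95% interval of -0.69 to 0.64 (exact permutation p = 1.0), and its sign turned without WT replicate 2 (0.071), WT replicate 3 (0.13) or KO replicate 3 (0.20) and after median centring (0.027). Erythroid precursors are rich in Tfrc, and 7 of 8 erythroid genes had a lower mean in KO, of which 4 reached an unadjusted p under 0.05 (Hbb-bs, Hba-a1, Hba-a2 and Klf1, beside 2.56% of all genes tested that did so in that direction) and 2 did not overlap between groups (Hbb-bs at -0.82 and Hba-a2 at -0.90, beside 4.33%). Their summed level was 11.71 to 12.67 in WT and 10.78 to 11.61 in KO. WT replicate 1 had the highest summed erythroid level and the lowest Tfrc, and the part of erythroid cells in the Tfrc values was not tested.

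Trf, the plasma iron carrier secreted by hepatocytes, lies at chr9:103208876-103230286. It had 15.22, 15.64 and 15.06 in WT and 15.97, 14.95 and 14.91 in KO. KO replicate 1, the library that stood apart in Gm42418 and Lars2, was the highest, and the other KO tumors lay below every WT tumor. The difference was -0.029 with a 95% interval of -0.94 to 0.88 (exact permutation p = 1.0), without KO replicate 1 it was -0.38, and its sign turned without WT replicate 2 (0.14), KO replicate 2 (0.14) or KO replicate 3 (0.15) and after median centring (0.025). Of the read-length stretches of the Trf transcript, 76.1% also occur in the annotated gene Gm20425, which was listed at about -2.2 in every library, so how such reads were assigned bears on the value of Trf.

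**Figure D3:**
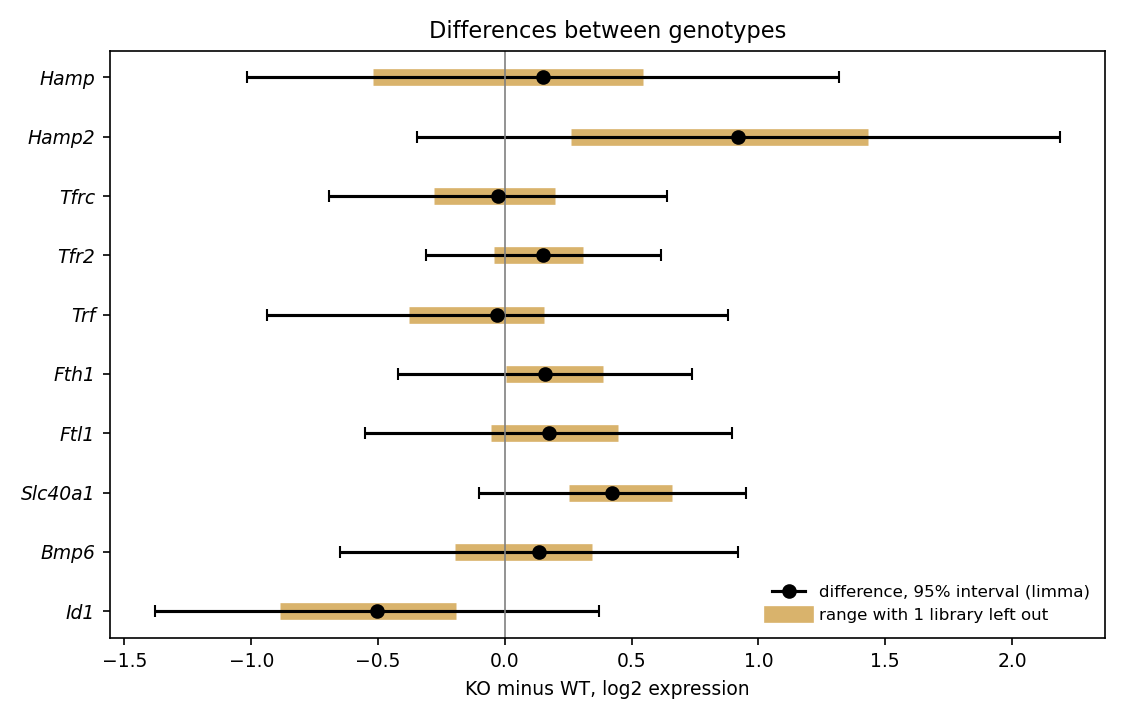
Difference in log2 expression, KO minus WT, for each of the 10 genes, with its 95% interval from limma (black) and the range of the difference when 1 of the 6 libraries was left out (gold). Every interval includes 0, and the gold range crosses 0 for Hamp, Tfrc, Tfr2, Trf, Ftl1 and Bmp6.

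The mRNAs of both ferritin chains were at high levels in every tumor, between 12.36 and 14.71. Fth1, the ferritin heavy chain with ferroxidase activity, lies at chr19:9980600-9985111 and had 12.94, 12.69 and 12.36 in WT and 13.13, 12.97 and 12.37 in KO. The lowest tumors of both groups were nearly level. The difference was 0.16 with a 95% interval of -0.42 to 0.74 (exact permutation p = 0.5). It was 0.39 without KO replicate 3 and 0.0029 without KO replicate 1.

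Ftl1, the ferritin light chain, lies at chr7:45457944-45459886. Its values were 14.23, 13.75 and 14.27 in WT and 14.35, 14.71 and 13.71 in KO. KO tumors held both the highest and the lowest value. The difference was 0.17 with a 95% interval of -0.55 to 0.90 (exact permutation p = 0.6), and it was 0.45 without KO replicate 3 and -0.054 without KO replicate 2. Of the read-length stretches of the Ftl1 transcript, 73.8% also occur in 5 other annotated genes, among them Ftl1-ps1, so that the level of Ftl1 is uncertain. Ftl1-ps1 itself had 5.59, 5.01 and 5.16 in WT and 5.37, 6.01 and 5.19 in KO.

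Iron is known to move Tfrc mRNA and ferritin protein in opposite directions. Its action on ferritin through the 5′ UTR is on translation, which RNA sequencing does not measure, so the gap given here is between mRNAs only. Tfrc minus Fth1 within a library was -3.70, -2.75 and -2.31 in WT against -3.45, -2.76 and -3.10 in KO. The KO values all lay inside the WT range. The mean was -2.92 ± 0.71 in WT and -3.10 ± 0.35 in KO (SD, n = 3 each), and the difference was -0.19 (exact permutation p = 0.7), or 0.12 without WT replicate 3.

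Slc40a1, the ferroportin gene, at chr1:45908070-45926532, had the largest difference of the 10 genes relative to its standard error. It had 11.12, 10.76 and 11.15 in WT and 10.96, 11.77 and 11.56 in KO. KO replicates 2 and 3 lay above every WT tumor, and KO replicate 1 lay inside the WT range. The WT mean was 11.01 ± 0.22 (SD, n = 3) and the KO mean 11.43 ± 0.42 (SD, n = 3). The difference was 0.42, a fold of 1.34, with a 95% interval of -0.10 to 0.95 (exact permutation p = 0.3). It was 0.66 without KO replicate 1, with an unadjusted limma p of 0.0069 that did not hold on adjustment. Without both WT replicate 2 and KO replicate 1 it was 0.54, again with an unadjusted limma p under 0.05 that did not hold on adjustment. It was 0.25 without KO replicate 2, and positive in all alternatives run. Macrophages also express ferroportin. The summed level of 8 Kupffer cell and macrophage markers was 12.33 to 13.43 in WT and 12.23 to 12.95 in KO, and WT replicate 3 was highest in 7 of the 8. Their part in the Slc40a1 values was not tested.

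Scaled to the length of the main transcript, the ferritin light chain and transferrin were the most abundant of the 10 mRNAs. The mean log2 value per kilobase over 6 libraries was 14.21 for Ftl1, 13.93 for Trf, 12.85 for Fth1 and 11.87 for Hamp. It was 10.45 for Tfr2, 9.47 for Slc40a1 and 8.32 for Id1, then 7.47 for Hamp2, 7.44 for Tfrc and 4.35 for Bmp6. Neighbours in this order whose ranges over the 6 libraries did not overlap were Trf and Fth1, Hamp and Tfr2, Tfr2 and Slc40a1, and Tfrc and Bmp6. The ranges of all other neighbours overlapped, so their order is not settled. On the union of annotated exons instead, Hamp (11.87) stood above Fth1 (10.95), and Tfrc (7.10) above Hamp2 (7.002).

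The 10 genes did not share one pattern over the tumors. The highest value lay in KO replicate 2 for 4 genes and in WT replicate 2, KO replicate 1 and KO replicate 3 for 2 genes each, and in WT replicates 1 and 3 for 0. The SD was larger in KO than in WT for 7 of the 10 genes, beside 53.6% of all genes tested. Likeness was measured as the root mean square difference between 2 genes' log2 values over the 6 libraries, each gene centred on its mean. None of the 10 was among the 5 nearest genes of another, which was likely from the outset with 22677 genes to choose from. The closest in rank were Tfr2 to Slc40a1 (0.21, rank 354), Tfr2 to Tfrc (0.30, rank 915) and Tfr2 to Ftl1 (0.29, rank 1069). At the other end was Hamp2 to Id1 (1.29, rank 22142). The nearest to Hamp were 1700003F12Rik (0.21), Pou2af1 (0.23), Cd79b (0.23), Zfp593 (0.24) and Mir100 (0.24), all of which, like Hamp, had their highest value in KO replicate 3. For comparison, the root mean square deviation of Hamp from its own mean was 0.69.

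The nearest to Hamp2 were Gm11893 (0.094), Gm4793 (0.13), Gm16239 (0.16), Abhd11os (0.21) and Lekr1 (0.23), all lowest in WT replicate 2. Tfrc lay nearest to Akap7 (0.11), Pik3r3 (0.11), Zfpm1 (0.12), Cntrob (0.13) and Gm13736 (0.13). Tfr2 lay nearest to Spag7 (0.030), Myo9b (0.059), Gapdhs (0.061), Emc8 (0.063) and Sh3bgrl2 (0.068), each highest in KO replicate 2. The genes nearest to Trf were Dad1 (0.049), Wbp1 (0.063), Ubl5 (0.081), Ndufa13 (0.082) and Cmc1 (0.085), each highest in KO replicate 1. Fth1 was followed most closely by Polr2f (0.064), 5730480H06Rik (0.065), Tro (0.084), Olfr1032 (0.092) and Gm16316 (0.094). The nearest to Ftl1 were Plppr2 (0.082), 4933424L21Rik (0.086), Acacb (0.089), Gm22077 (0.11) and Ccdc18 (0.11). Slc40a1 lay nearest to Cs (0.076), Dmgdh (0.084), Fut1 (0.085), Plekha5 (0.098) and 4930402H24Rik (0.10). For Bmp6 they were Neil2 (0.10), Npff (0.12), Gm25540 (0.12), 1700003E16Rik (0.12) and Gm10156 (0.13), each lowest in WT replicate 3. For Id1 they were Twf2 (0.12), Gm17083 (0.16), Hist1h2ab (0.18), Haus5 (0.19) and Gm9806 (0.19). These matches, and those of Hamp, were taken from 22677 genes over 6 libraries and carry no test. Because they were picked for likeness over the libraries, a shared highest or lowest library follows largely from that choice.

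The other genes of these pathways were read from 6 lists with 92 genes, of which 89 were in the table and were tested. By limma, 0 of the 89 had an adjusted p under 0.05. An unadjusted p under 0.05 was reached by 5 genes (5.62%, beside 4.34% of all genes tested), and in 6 (6.74%, beside 8.28%) the groups did not overlap. The mean was higher in KO for 40 and lower for 49, and the median difference was -0.012.

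Among 24 genes of the BMP-SMAD pathway, 11 had a higher and 13 a lower mean in KO, with a median difference of -0.022. Of these, 2 had an unadjusted p under 0.05, both higher in KO (beside 1.79% of all genes tested in that direction). Hfe2, which encodes the BMP co-receptor hemojuvelin, had 9.82, 9.51 and 9.60 in WT and 9.86, 10.19 and 10.42 in KO, a difference of 0.51 (SE 0.17). Atoh8, a transcription factor known to act on the hepcidin promoter, had 7.61, 7.64 and 7.24 in WT and 8.00, 8.24 and 9.20 in KO, a difference of 0.98 (SE 0.31). In both genes every KO tumor lay above every WT tumor, and KO replicate 3, the tumor highest in Hamp, was the highest. Hfe2 lost the unadjusted threshold without trend (SE 0.21) and without WT replicate 2, WT replicate 3 or KO replicate 3, and Atoh8 kept it under every alternative run.

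The groups also did not overlap for 2 further BMP-SMAD genes, both higher in KO. With Hfe2 and Atoh8, 4 of the 24 were higher in KO without overlap, beside 3.95% of all genes tested. Tmprss6, which encodes matriptase-2, the protease that cleaves hemojuvelin, had 12.43, 12.59 and 12.41 in WT and 12.87, 12.70 and 12.65 in KO (difference 0.26, SE 0.16). Smad4, the shared partner of the receptor-activated SMADs, had 9.52, 9.37 and 9.29 in WT and 9.53, 9.59 and 9.67 in KO (difference 0.21, SE 0.13). In Smad4 the margin between the groups was about 0.01. Smad4 and Hfe2 overlapped after quantile normalization, and Tmprss6 after median centring. The lowest difference in the list was that of the ligand Bmp7, at -1.87 (SE 1.11), with 7.31, 7.68 and 5.93 in WT and 7.73, 2.83 and 4.76 in KO.

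KO replicate 3 was the highest library in 9 of the 24 BMP-SMAD genes (37.5%), beside 16.1% of all genes tested, a count made after the values were seen. Among the feedback genes of the pathway, the inhibitory SMAD Smad7 had 8.03, 8.08 and 7.90 in WT and 7.58, 7.95 and 8.44 in KO (difference -0.012, SE 0.23). Smad7, chosen after its values were seen, was thus highest in the tumor highest in Hamp, whereas Id1 there was 8.38, below WT replicates 2 and 3. Smad6 (7.57) and Id2 (11.75) were also highest in that tumor. Id3 (9.447) there was below WT replicate 3 (9.465), and Id4 (4.54) below WT replicate 1 (4.71).

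**Figure D4:**
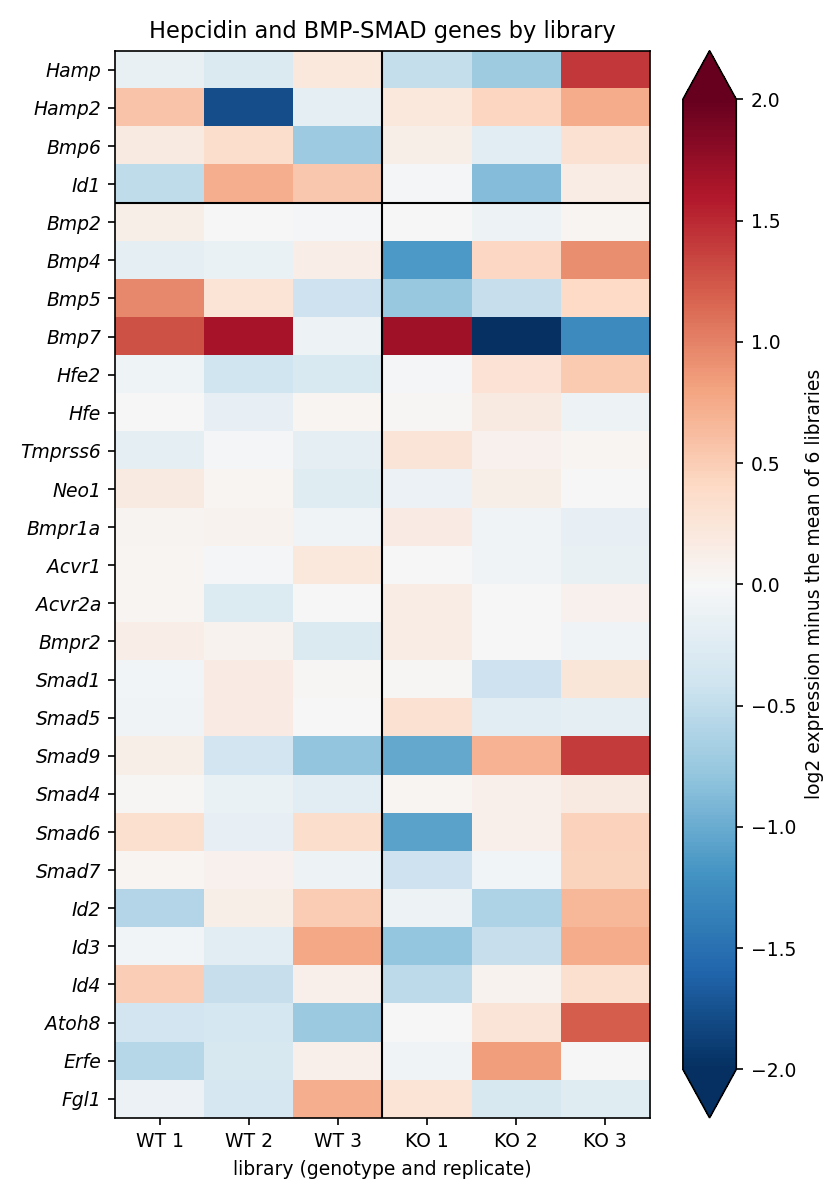
Log2 expression of Hamp, Hamp2, Bmp6 and Id1 (above the black line) and of 24 BMP-SMAD pathway genes in each library, each gene centred on its mean over the 6 libraries. Red is above and blue below the mean, the scale stops at 2 log2 units either way, and KO replicate 3 is the highest library in 9 of the 24.

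In the inflammatory arm, 8 genes were tested, with 3 higher and 5 lower in KO, 0 at an unadjusted p under 0.05 by limma and 0 not overlapping. The lowest difference was that of Socs3, a STAT3 target that dampens the pathway, with 7.19, 6.95 and 8.55 in WT and 6.96, 6.38 and 6.71 in KO (-0.88, SE 0.41). By counts made after the values were seen, WT replicate 3 was the highest library in 5 of the 8 genes. This was 62.5%, beside 16.7% of all genes tested. That library was also the highest in 7 of 8 Kupffer cell and macrophage markers. Its Hamp value, 10.79, was the highest of the WT tumors. KO replicate 3, the tumor highest in Hamp (12.00), was the highest library in 1 and the lowest in 2 of the 8 genes. Socs3 there, at 6.71, was below every WT tumor. The part of the inflammatory genes in the Hamp values was not tested. The highest difference was that of the cytokine Il1b, at 0.44 (SE 0.72).

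The 6 genes of iron sensing and ferritin turnover differed little. Their differences ran from -0.14 (SE 0.15) for Aco1, which encodes iron regulatory protein 1, to 0.098 (SE 0.14) for Fbxl5, which encodes the ligase subunit that targets iron regulatory protein 2. By limma 0 of 6 had an unadjusted p under 0.05, and 0 of 6 did not overlap.

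Among 21 genes of iron and heme transport, 9 had a higher and 12 a lower mean in KO, and 2 had an unadjusted p under 0.05. Cybrd1, a ferric reductase best known from the duodenum, had 2.59, 3.19 and 3.26 in WT and 1.61, 1.995 and 1.62 in KO, with a difference of -1.27 (SE 0.43). Its levels were low in every tumor, it lost that threshold without WT replicate 3, and it was the only one of the 21 whose groups did not overlap (beside 4.33% of all genes tested that were lower in KO without overlap, and 2.56% that were lower at an unadjusted p under 0.05). Cd163, the macrophage receptor for haptoglobin-hemoglobin, had 6.61, 6.72 and 7.19 in WT and 8.34, 6.93 and 8.48 in KO, with a difference of 1.08 (SE 0.41). The groups overlapped, and it lost that threshold without trend and without WT replicate 1, WT replicate 2, KO replicate 1 or KO replicate 3. Of the 8 Kupffer cell and macrophage markers, 5 had a higher and 3 a lower mean in KO, and their part in the Cd163 values was not tested.

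Of 9 genes of heme synthesis, 3 were higher and 6 lower in KO, with 0 at an unadjusted p under 0.05 by limma and 0 not overlapping. Alas1, the rate-limiting enzyme in the liver, had 12.55, 11.51 and 12.13 in WT and 10.86, 12.15 and 10.39 in KO, the lowest difference of the list (-0.93, SE 0.45). The highest was that of Uros, at 0.25 (SE 0.16).

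Of 21 genes of mitochondrial iron and iron-sulfur clusters, 10 were higher and 11 lower in KO. Slc25a37, which encodes mitoferrin-1, an importer of iron into mitochondria, had 9.56, 9.77 and 9.83 in WT and 9.39, 9.31 and 9.32 in KO, with a difference of -0.38 (SE 0.13). This was the 1 gene of the list with an unadjusted p under 0.05 (beside 4.34% of all genes tested, and 2.56% lower in KO). It was also the only 1 of the 21 without overlap, every KO tumor lying below every WT tumor (beside 4.33% of all genes tested). It lost that threshold without trend (SE 0.17), after median centring (-0.33, SE 0.16) and without WT replicate 2, WT replicate 3 or KO replicate 2. After median centring the groups still did not overlap. The other settings named could not make separated groups overlap. Mitoferrin-1 is rich in erythroid cells, and the erythroid markers had a lower mean in KO in 7 of 8, with the summed levels given above. Their part in this value was not tested. The highest difference in the list was that of the co-chaperone Hscb, at 0.44 (SE 0.32).

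**Figure D5:**
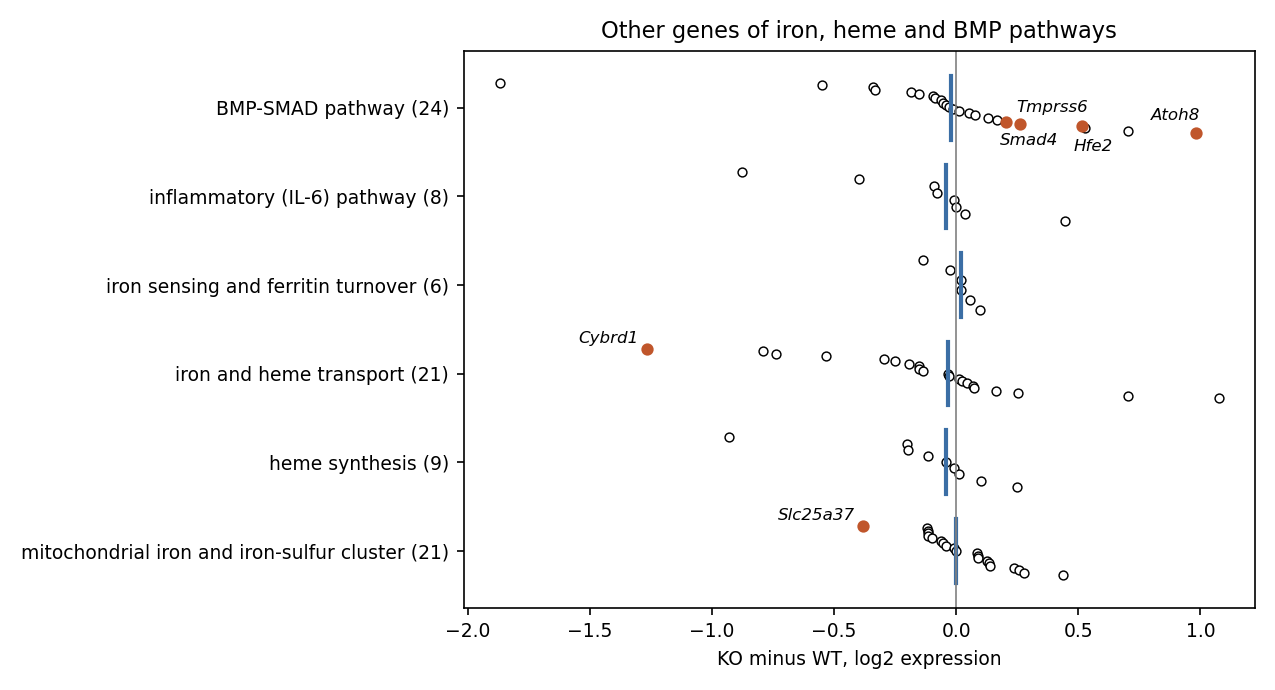
Difference in log2 expression, KO minus WT, of the 89 other genes in the 6 pathway lists, with the number of genes in parentheses. Each circle is a gene, filled and named where the 3 KO values all lay on one side of the 3 WT values (6 genes), and blue bars mark the median of each list, which lies between -0.043 and 0.020.

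Markers of other tissue components were read in the same libraries, again with 0 adjusted p under 0.05 by limma. Of 8 stellate cell and myofibroblast genes 7 had a lower mean in KO (beside 52.3% of all genes tested), with Lrat at -0.79. Their summed level was 13.55 to 14.33 in WT and 13.19 to 13.76 in KO. Of 6 bile duct genes 4 had a lower mean in KO, with Krt19, the lowest of them, at -2.68. By limma 2 of the 6, Krt19 and Krt7, had an unadjusted p under 0.05, both lower in KO (beside 2.56% of all genes tested). In 2 of the 6, Krt19 and Epcam, every KO tumor lay below every WT tumor (beside 4.33%). The summed level of the 6 genes was 11.59 to 12.62 in WT and 11.71 to 12.58 in KO. Most of it came from Spp1, which ran from 11.32 to 12.56 and differed by 0.045, so it says little about the other genes. Of 8 hepatocyte genes 5 had a higher mean in KO (beside 47.7% of all genes tested), and their summed level was 20.90 to 21.58 in WT and 21.13 to 21.69 in KO. Their part in the values of the hepcidin and iron genes was not tested.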

How the data were processed

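RNA-seq libraries from 3 WT and 3 Top1mt-KO liver tumors, grouped and numbered by the sample labels, were analysed. The deposited table gives, per gene symbol, log2 values that the authors normalized between libraries with a transform that the sources used here do not name. According to the study's methods, the authors used Trimmomatic for trimming, BWA for alignment to a genome named Mm 8, featureCounts for uniquely mapped reads, and DESeq2. The submitters' processing notes, from the authors too, instead list Trimmomatic 0.36, STAR 2.5.1, Subread, DESeq2 and GRCm38. Which of these made the table was not settled. Unique mapping leaves out reads that fit more than one copy of a gene, and the table's transform may draw low values toward their mean. Reads were paired and from stranded libraries. The table's 3 unnamed columns were not used, and it held 0 further columns of per-sample values.

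Because no counts were used, genotypes were compared with limma 3.58.1 (lmFit, eBayes with trend) in R 4.3.3, with Benjamini-Hochberg adjustment over the 22677 genes above the lowest 25% of means and a threshold of 0.05. Single values were compared by exact permutation in scipy 1.17.1. Depth is unknown, so no counting intervals are given, and 3 libraries per group limit the precision. Summed marker levels are log2 of the summed linear values. Alternatives were limma without trend, quantile normalization, median centring, other filters, the replicate block and leaving out each library. Leaving out both WT replicate 2 and KO replicate 1, and counting members higher in KO under each setting, were added after the values were seen. So were the counts of genes highest or lowest in each library.

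The 10 genes and the pathway and marker lists were chosen with earlier results of these data known. Named beside them are Top1mt, list genes with an unadjusted p under 0.05 or groups that did not overlap, the extremes of each pathway list, the 5 nearest genes to each, marker genes and transcripts of the library that stood apart. Hfe2 is the table's symbol for hemojuvelin. Il22, Flvcr1 and Ftmt were not analysed here. Positions and promoters are from RefSeq (GRCm38.p6) and transcripts from GENCODE M21 (GRCm38), aligned with Biopython 1.88.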

Additional observations from a re-analysis of the deposited data

How the results depend on the processing

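With all 13 alternatives, 0 of the 10 genes had an adjusted p under 0.05, and the smallest was 0.597, for Slc40a1. Of 130 values of the 10 genes, 116 kept their direction and 14 reversed. Hamp2, Fth1, Slc40a1 and Id1 did not reverse.

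Leaving out 1 library moved the difference of Hamp between -0.52 and 0.55, Tfrc between -0.28 and 0.20, Tfr2 between -0.043 and 0.31, Trf between -0.38 and 0.15, Ftl1 between -0.054 and 0.45 and Bmp6 between -0.20 and 0.34. Hamp2 moved between 0.26 and 1.43. Hamp minus Hamp2 moved between -1.32 and -0.22, Tfrc minus Fth1 between -0.58 and 0.12 and Hamp minus Id1 between 0.19 and 1.04. The number of the 10 genes whose groups did not overlap then ran from 0 to 3, beside 15.9% to 21.5% of all genes tested. It was 3 without KO replicate 3 (Hamp, Fth1, Ftl1), 2 without KO replicate 1 (Trf, Slc40a1) and 2 without WT replicate 1 (Hamp2, Id1). Without both WT replicate 2 and KO replicate 1 it was 2, beside 33.6%, and Tfrc was at 0.090 and Ftl1 at -0.042. Cybrd1, Cd163 and Slc25a37 then also lost an unadjusted p under 0.05. The number with a higher mean in KO ran from 6 to 9. Median centring, which moved the median of all genes from -0.015 to 0.039, put Tfrc at 0.027 and Trf at 0.025. The causes were not tested.

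Genes with an adjusted p under 0.05 numbered 0, or 4 with no filter on low values, and 0 to 1 with 1 library left out, the 1 without KO replicate 1. List genes at an unadjusted p under 0.05 then ran from 1 to 5 for BMP-SMAD, 0 to 1 for inflammation, 1 to 3 for transport, 0 to 1 for heme synthesis and 0 to 2 for mitochondrial iron. With the replicate number as a block, 0 genes were called and 912 had an unadjusted p under 0.05, beside 985 without it. Same-numbered libraries deviated together with r = -0.123, -0.0759 and 0.0520, which does not show a pairing by number. The block changed no call, but 0 genes were called without it, so this has little bearing on a pairing. Depth is unknown, so what it limits cannot be stated.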
